A study of Mus musculus with 6 samples.

Results

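Dusp1, Dusp5 and Dusp8 encode dual specificity phosphatases that inactivate MAP kinases, and they were described here across all 6 arrays of a study of fluid flow on MC3T3-E1 cells, a mouse line of osteoblastic cells (bone-forming lineage; clone 14). Every probe that the platform annotation gives to the 3 gene symbols was taken from the processed log2 table. The 3 genes, of 8566 named genes in the table, had 4 probes (1 for Dusp1, 1 for Dusp5 and 2 for Dusp8) of 13183 that carry a single gene name other than a RIKEN cDNA name. All 4 probes had passed the filter on low values, and each was detected on all 6 arrays, so no member entered through only 1 condition.

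Cells were exposed to continuous flow for 1 h, to rest-inserted flow for the same time (4 bouts, each of 5 min of flow and 10 min of rest), or to no flow. Flow was generated by orbital shaking of culture plates. RNA was taken immediately after the regimen (0 h) or 1 h later. As each bout ended in rest, rest-inserted cultures at 0 h had last been under flow 10 min earlier. They had also been under flow for less time in total than cultures of continuous flow. RNA of 3 independent experiments was pooled for each of the 6 conditions and run on a single Illumina MouseWG-6 array. Replicate arrays were thus lacking, and the spread between experiments cannot be seen.

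MAP kinases (ERK, JNK and p38) are activated by phosphorylation of a threonine and a tyrosine, and the dual specificity phosphatases remove both phosphates. Several of these phosphatases are themselves early response genes, transcribed within minutes of a stimulus, and so form a negative feedback on the pathway. They differ in substrate. Dusp5 is a nuclear phosphatase selective for ERK, Dusp1 (MKP-1) is a nuclear phosphatase that acts on JNK and p38 and also on ERK, and Dusp8 prefers JNK and p38. In bone cells, ERK, JNK and p38 are all known to respond to mechanical stimuli. The arrays measure RNA, not phosphatase or kinase activity.

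The RefSeq gene table (build GRCm38.p6) places Dusp1 on the minus strand of chromosome 17 (26505591 to 26508472), Dusp5 on the plus strand of chromosome 19 (53529145 to 53541809) and Dusp8 on the minus strand of chromosome 7 (142079487 to 142095907). The bases just before each start are shown because the members were high on the same arrays, as described next. Each window holds the 250 bases upstream of the start used in the RefSeq promoter table, read 5′ to 3′ on the strand of the gene. Capitals mark matches on either strand to the cAMP response element TGACGTCA, to the shorter TGACG that begins it, or to a CArG box (the serum response factor motif). For Dusp8 the annotated gene span runs 623 bases further upstream than this start, so its window lies inside the span.
Dusp1 (chr17:26508473-26508722, minus strand): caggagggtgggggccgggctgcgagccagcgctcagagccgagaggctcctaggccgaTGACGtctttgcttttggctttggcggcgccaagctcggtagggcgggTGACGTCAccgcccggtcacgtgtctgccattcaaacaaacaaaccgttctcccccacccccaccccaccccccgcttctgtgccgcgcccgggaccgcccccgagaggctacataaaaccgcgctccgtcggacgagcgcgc
Dusp5 (chr19:53528895-53529144, plus strand): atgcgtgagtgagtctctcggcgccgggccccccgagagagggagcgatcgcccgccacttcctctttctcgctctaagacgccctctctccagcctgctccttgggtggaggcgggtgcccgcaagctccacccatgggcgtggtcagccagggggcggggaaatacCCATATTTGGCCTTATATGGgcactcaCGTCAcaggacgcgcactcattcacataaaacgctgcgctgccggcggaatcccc
Dusp8 (chr7:142095285-142095534, minus strand): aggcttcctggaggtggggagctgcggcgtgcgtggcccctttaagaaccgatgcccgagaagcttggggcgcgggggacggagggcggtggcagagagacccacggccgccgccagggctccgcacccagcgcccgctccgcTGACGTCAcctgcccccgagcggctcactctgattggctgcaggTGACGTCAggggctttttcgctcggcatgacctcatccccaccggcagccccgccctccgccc

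The Dusp1 window held 1 cAMP response element, beginning 143 bases before the start, and 1 separate TGACG site at 191 bases. The Dusp8 window held 2 of these elements, at 107 and 63 bases. Dusp5 had no full element but a pair of adjoining CArG boxes, at 82 and 72 bases, and 1 TGACG site on the other strand at 55 bases. Of the 32851 windows of this length in the table, 1.55% held TGACGTCA, 17.8% held TGACG, 1.47% held a CArG box and 6.75% held the AP-1 motif TGANTCA, all on both strands. The AP-1 motif was in none of the 3 windows. A full element contains TGACG on both strands. These motifs were selected after the sequences had been looked at, together with other common motifs that are not given, and a match is a string of letters, not evidence of a bound factor. Among the other phosphatases of the family with a measured probe, the Dusp6, Dusp7 and Dusp10 windows held none of the 4 motifs and the Dusp16 window held 1 TGACG site.

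**Figure D1:**
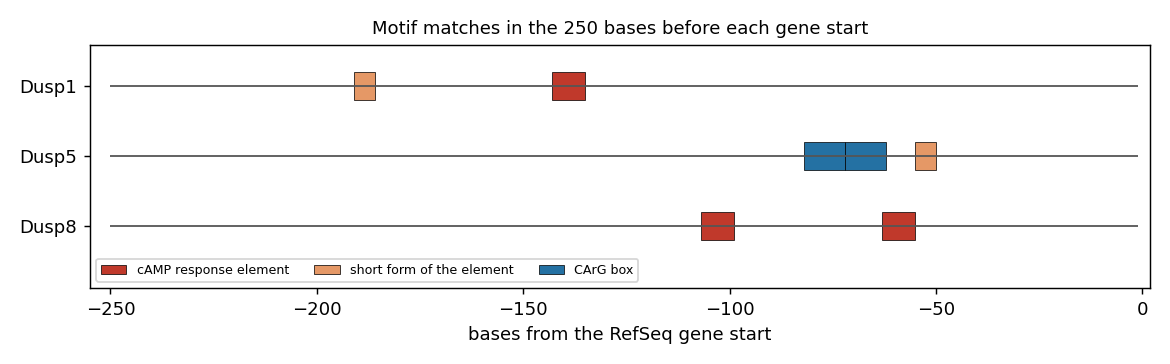
Positions of motif matches in the 250 bases before the RefSeq start of each gene (horizontal axis, bases from the start). Filled boxes mark full cAMP response elements, shorter TGACG matches outside them (short form), and CArG boxes. Dusp1 and Dusp8 carry full elements and Dusp5 carries the pair of CArG boxes.

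In all 4 probes, the 2 flow arrays harvested immediately after the regimen had the highest levels of the 6. At 1 h both flow arrays were close to no flow. Levels are quantile normalized log2 intensities, in which a difference of 1 is a doubling. Each kind of flow is given on its own first. In RNA from whole cultures, more RNA per cell and more cells with the RNA cannot be told apart. A difference between 2 single arrays has no test, and it is read beside the share of all 13183 named probes that differ as much.

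For the ERK-selective phosphatase Dusp5 (probe ILMN_2531737), the log2 intensity at 0 h was 6.20 under continuous and 6.08 under rest-inserted flow, against 5.61 without flow. At 1 h the levels were 5.53 under continuous and 5.45 under rest-inserted flow, against 5.62 without flow. The 4 arrays other than those of flow at 0 h spanned only 0.17. Dusp5 was thus 1.51-fold higher under continuous flow than without flow at 0 h (log2 difference 0.59) and 1.39-fold higher with rest-inserted flow (0.47). Its difference at 1 h was -0.09 for continuous and -0.17 for rest-inserted flow. These are the smallest 0 h differences of the 4 probes, and 428 named probes were at least as high in continuous and 649 in rest-inserted flow.

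Dusp1 (probe ILMN_2622983), the phosphatase with the broadest action of the 3, had a log2 intensity at 0 h of 8.53 under continuous and 8.02 under rest-inserted flow, against 7.45 without flow. At 1 h, continuous flow stood at 7.13 and rest-inserted flow at 7.03, against 7.24 without flow. Cells under continuous flow had 2.11-fold the no flow level at 0 h (1.08), a difference reached by 54 named probes, Dusp1 included. Rest-inserted flow gave 1.48-fold (0.56), reached by 432. At 1 h the differences were -0.10 for continuous and -0.21 for rest-inserted flow. Dusp1 was the 1 probe of the 4 whose no flow arrays differed by over 0.1, the 1 h array lying 0.22 below the 0 h array.

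Dusp8, which acts on JNK and p38, was represented by 2 probes. The probe ILMN_2416218 had at 0 h 6.76 under continuous and 6.54 under rest-inserted flow, against 5.45 without flow, and at 1 h 5.69 under continuous and 5.20 under rest-inserted flow, against 5.46 without flow. The 0 h differences were 1.30 with continuous flow (2.47-fold, reached by 13 named probes) and 1.08 with rest-inserted flow (2.12-fold, reached by 37). The flow arrays at 1 h lay on either side of no flow, at 0.22 for continuous and -0.27 for rest-inserted flow.
The probe ILMN_1228031 had at 0 h 6.09 under continuous and 5.69 under rest-inserted flow, against 5.00 without flow, and at 1 h 4.94 under continuous and 4.96 under rest-inserted flow, against 5.04 without flow. Its 0 h differences were 1.09 with continuous flow (2.12-fold, reached by 51) and 0.69 with rest-inserted flow (1.61-fold, reached by 247). At 1 h these were -0.11 and -0.082. The 2 probes therefore both put Dusp8 higher at 0 h but gave different sizes, and they differed in sign for continuous flow at 1 h. The platform annotation pairs ILMN_1228031 with a RefSeq transcript and gives none for ILMN_2416218, so the part of the transcript that the second probe reads is not known here.

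**Figure D2:**
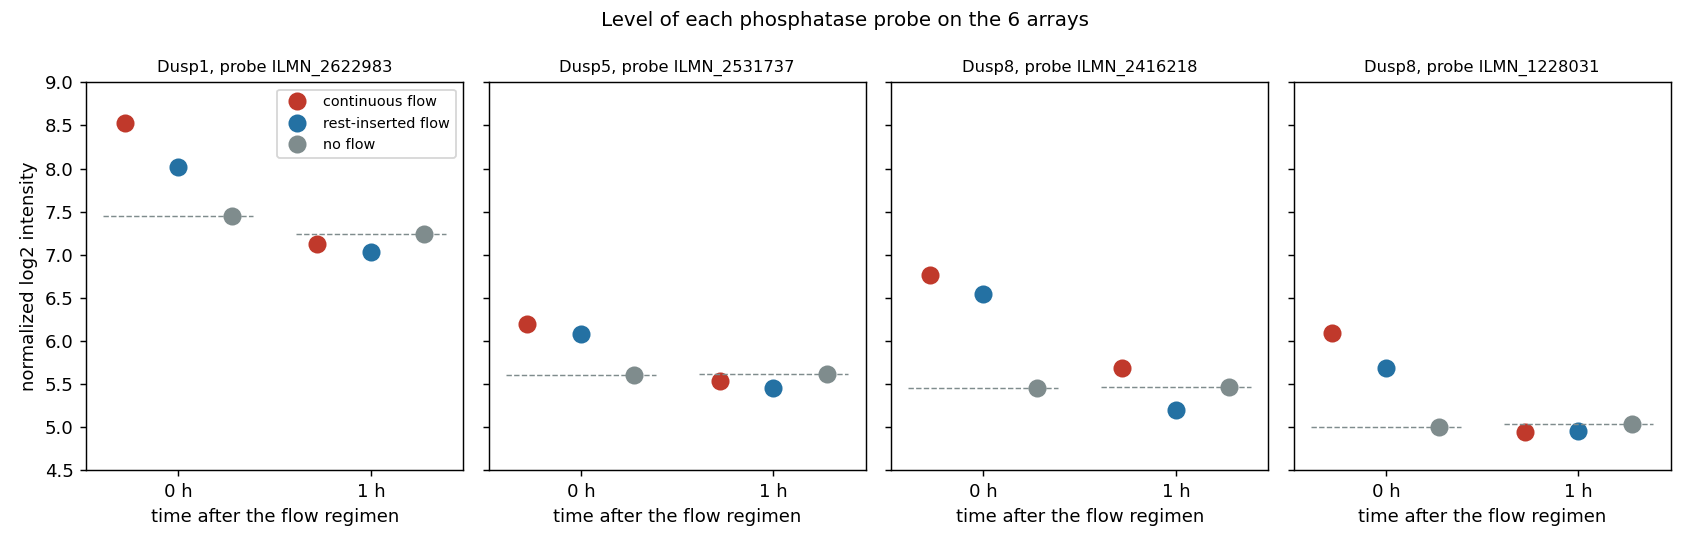
Normalized log2 intensity (vertical axis) of each probe on each of the 6 arrays, 1 point an array, with continuous flow, rest-inserted flow and no flow from left to right at 0 h and again at 1 h. Dashed lines carry the no flow level of each time point across. At 0 h both flow points lie above the line in all 4 panels, and at 1 h they lie within 0.27 of it.

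Immediately after continuous flow, all 4 probes were past 1.5-fold above no flow, where 3.38% of all named probes were, although Dusp5 was past it only narrowly. After rest-inserted flow 2 of 4 were past it, both of Dusp8, where 3% of named probes were. At 1 h, 0 of 4 were past it in either flow (3.35% of named probes with continuous and 3.18% with rest-inserted flow). With a limit of 2-fold at 0 h, the counts were 3 of 4 with continuous flow (0.561% of named probes) and 1 of 4 with rest-inserted flow (0.417%). These shares depend on intensity. Among named probes detected on all arrays and within 0.5 of a member's mean log2 level, fewer were past 1.5-fold at 0 h. With continuous flow they were 0.417% for Dusp1, 1.89% for Dusp5, and 1.53% and 3.1% for Dusp8. With rest-inserted flow they were 0.156%, 1.51%, 1.15% and 2.6%. Both flow arrays at 0 h lay above the other 4 arrays in 4 of 4 probes, and in 9.92% of all named probes. The gap between the lower of these 2 arrays and the highest of the others was 0.56 for Dusp1, 0.46 for Dusp5 and 0.85 and 0.64 for Dusp8. The comparisons of the 2 flows at a time point share their no flow array, and the 2 Dusp8 probes read 1 gene, so these counts are not independent of each other. The members were also chosen with earlier results of these data known, so the shares here and below do not test them.

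**Figure D3:**
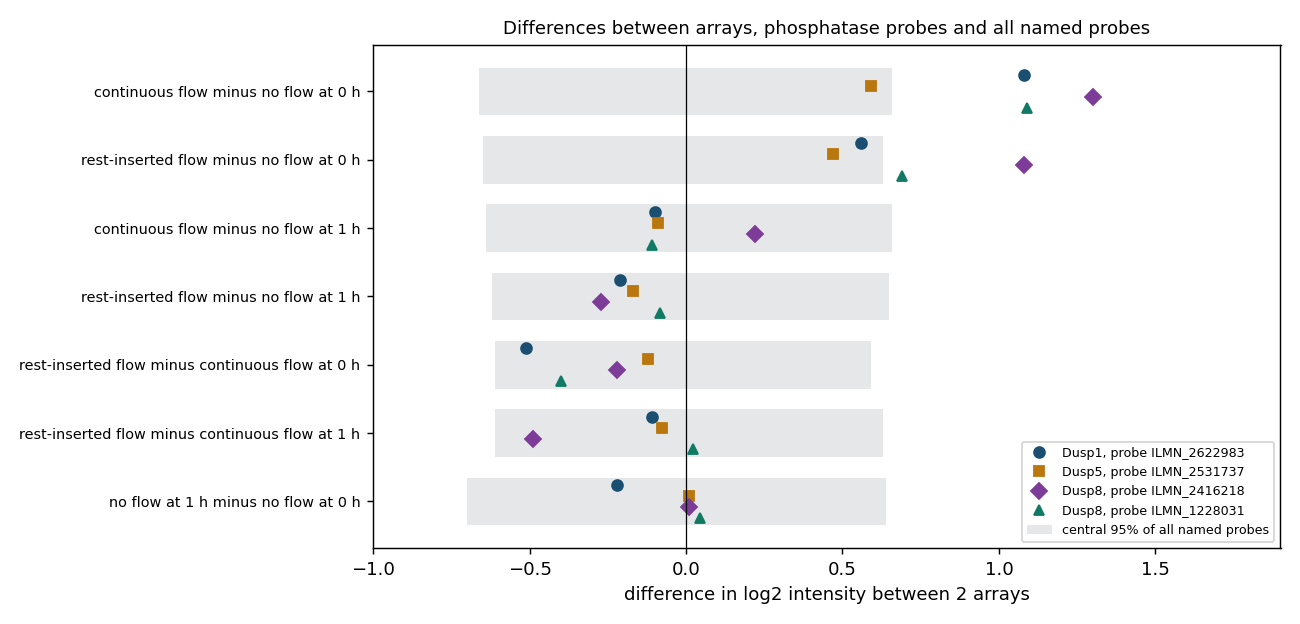
Differences in log2 intensity between pairs of arrays (horizontal axis) for the 4 probes, over grey bars that hold the central 95% of all 13183 named probes. Dusp1 and both Dusp8 probes lie right of the bar for continuous flow at 0 h, and both Dusp8 probes for rest-inserted flow at 0 h, while all points of the other comparisons lie within the bars.

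Rest-inserted flow was lower than continuous flow at 0 h in all 4 probes. A lower value alone is common, as the median of all named probes in this comparison was 0.00046. The Dusp8 probes also read the same gene. The regimens differed in total flow time and in the time since the last flow as well as in rest. The log2 difference was -0.51 in Dusp1, -0.12 in Dusp5 and -0.22 and -0.40 in Dusp8, and 0 of 4 were past 1.5-fold (2.74% of named probes were lower by that much). Dusp1 differed most, with 476 named probes at least as low. Among probes of like intensity, chosen as above, 2 of 1919 were at least as low as Dusp1 and 604 of 2059 as Dusp5. For the Dusp8 probes these counts were 318 of 2095 and 134 of 2001, and each count includes the probe itself. At 1 h the differences were -0.11 for Dusp1, -0.076 for Dusp5, and -0.49 and 0.023 for the Dusp8 probes ILMN_2416218 and ILMN_1228031. Tested in limma over both time points with time as a term, the change of rest-inserted against continuous flow was -0.31 for Dusp1 (95% confidence interval -1.15 to 0.53), -0.10 for Dusp5 (-0.66 to 0.46), and -0.35 (-1.34 to 0.63) and -0.19 (-1.03 to 0.66) for Dusp8, with an adjusted p of 0.999 for each. These intervals include a lower level by more than 1.5-fold, so the arrays do not show that the regimens act alike.

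Between the time points, the arrays of each flow differed more than those of no flow. In continuous flow, Dusp1 was 2.63-fold lower at 1 h than at 0 h (-1.40), Dusp5 1.59-fold lower (-0.67), and Dusp8 2.10-fold (-1.07) and 2.21-fold lower (-1.15). In rest-inserted flow the same differences were -0.99, -0.63, -1.34 and -0.73. All 4 probes were lower by over 1.5-fold in each flow, as were 4.28% of named probes in continuous and 3.66% in rest-inserted flow. In no flow the differences were -0.22 for Dusp1, 0.01 for Dusp5, and 0.01 and 0.046 for Dusp8, which leaves 0 of 4 past this limit (3.96% of named probes). These values use the same 0 h arrays as the differences from no flow above.

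The effect of flow at each time point was tested in limma with continuous and rest-inserted flow as the repeats of flow, which leaves 2 residual degrees of freedom and assumes that the lone no flow arrays vary like the flow pairs. At 0 h the estimate was 0.82 for Dusp1 (SE 0.24, adjusted p = 0.626), 0.53 for Dusp5 (SE 0.10, adjusted p = 0.549), and 1.19 (SE 0.25) and 0.89 (SE 0.19) for the Dusp8 probes ILMN_2416218 and ILMN_1228031, both with an adjusted p of 0.578. Their 95% confidence intervals lay above 0, from 0.14 to 1.51 for Dusp1, from 0.24 to 0.83 for Dusp5, and from 0.49 to 1.89 and from 0.35 to 1.43 for Dusp8. None passed the limma threshold of 0.05 after Benjamini-Hochberg adjustment over 13183 probes, where 0% of all named probes did (the smallest adjusted p was 0.414). Without adjustment, 4 of 4 probes were under 0.05, as were 1004 of all named probes (7.62%), of which 535 were higher with flow. As the members were chosen with earlier results of these data known, this count does not test them.

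At 1 h the limma estimates were -0.16 for Dusp1 (SE 0.24), -0.13 for Dusp5 (SE 0.10), and -0.022 (SE 0.25) and -0.094 (SE 0.19) for Dusp8, with 0 of 4 under 0.05 before adjustment (6.52% of named probes). The difference between the effects, 0 h minus 1 h, was 0.98 for Dusp1 (adjusted p = 0.697), 0.66 for Dusp5 (adjusted p = 0.63), and 1.22 (adjusted p = 0.659) and 0.98 (adjusted p = 0.644) for Dusp8. Before adjustment all 4 were under 0.05 in limma, as were 7.15% of named probes, and after it 0 of 4. The fit with flow and time as terms took the time points as repeats, so the differences between 0 h and 1 h enter its error. Averaged over both time points, its estimates of continuous flow against no flow were 0.49, 0.25, 0.76 and 0.49 in the same order of probes. Those of rest-inserted flow were 0.18, 0.15, 0.41 and 0.30. The adjusted p in limma was at least 0.868 for these 8 values, and 0 of 13183 probes were called in either comparison (804 and 711 under 0.05 before adjustment). Without the no flow 0 h array, no flow is represented at 1 h alone, so these estimates largely follow the 1 h differences above. Then 7 of the 8 were below 0, including -0.0016 for Dusp1 and -6e-04 for the Dusp8 probe ILMN_1228031 with continuous flow.

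**Figure D4:**
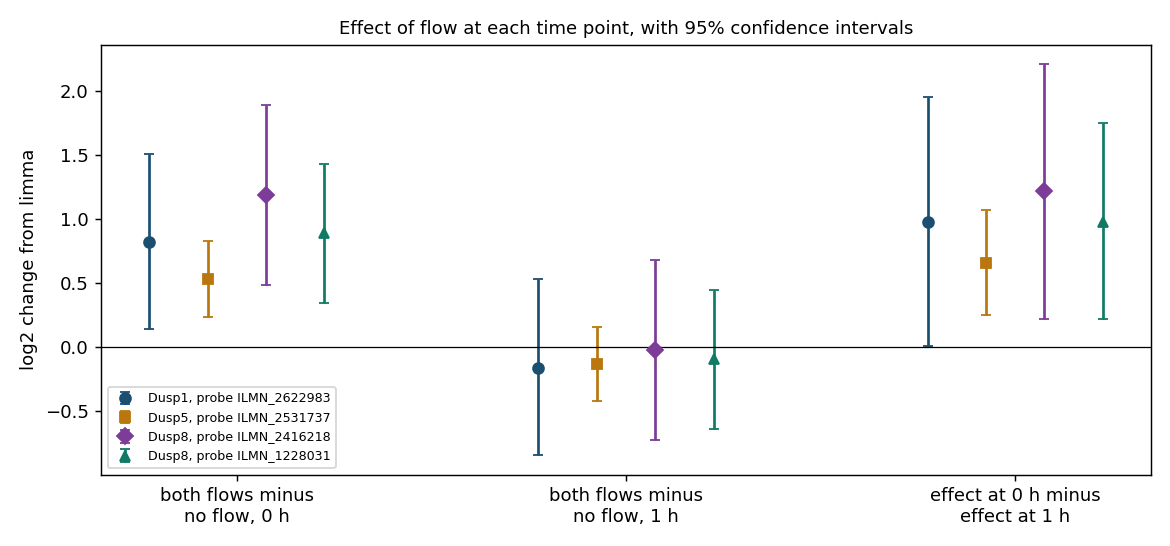
Log2 change from limma (vertical axis) for the 4 probes, with both kinds of flow as repeats, at 0 h, at 1 h and for the difference between the effects. Bars are 95% confidence intervals. At 0 h all 4 intervals lie above 0, and at 1 h all 4 include it.

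The other MAP kinase phosphatases were set beside the 3 genes by substrate, with the brightest probe of each gene. Dusp6 and Dusp7, cytoplasmic phosphatases selective for ERK, were near no flow at 0 h. Dusp6 differed by 0.11 with continuous and 0.11 with rest-inserted flow, and Dusp7 by -0.18 and 0.029. The 2 dimmer Dusp6 probes gave -0.18 and -0.41 with continuous and -0.085 and -0.18 with rest-inserted flow. At 1 h Dusp6 differed by -0.087 with continuous and -0.13 with rest-inserted flow and Dusp7 by 0.15 and 0.029, while the dimmer Dusp6 probe ILMN_1248537, detected on all arrays, had 0.73 and 0.15. The difference from no flow at 0 h was thus larger for the ERK-directed Dusp5 than for Dusp6 and Dusp7 in both flows. This was not tested.

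Dusp10 and Dusp16 act, like Dusp8, on JNK and p38. At 0 h Dusp10 differed by 0.52 in continuous and 0.53 in rest-inserted flow, and at 1 h by -0.55 and -0.44. Its 1 h levels were 5.77 under continuous and 5.89 under rest-inserted flow, against 6.32 without flow, and the no flow array of 0 h stood at 5.81. The second Dusp10 probe gave 0.32 and 0.39 at 0 h, and a smaller drop at 1 h (-0.17 and -0.12). Dusp16 differed by 0.38 and 0.33 at 0 h and by 0.18 and 0.18 at 1 h. At 0 h, 3 of 3 Dusp16 probes were above no flow in both flows (range 0.17 to 0.58). At 1 h its dimmer probes had 0.27 and 0.39 with continuous and -0.11 and 0.14 with rest-inserted flow. None of Dusp6, Dusp7, Dusp10 and Dusp16 was past 1.5-fold at 0 h or passed the limma test with the brightest probe. Their adjusted p for both flows at 0 h was 0.824, 0.926, 0.549 and 0.593. No named probe of Dusp2, Dusp4 or Dusp9 passed the filter. Of 14 atypical dual specificity phosphatases, which lack the MAP kinase docking domain, 8 were measured. With continuous flow at 0 h, 1 was higher by over 1.5-fold (Dusp15, 0.86) and 1 was lower (Dusp13, -0.70), each detected on at most 2 arrays, and with rest-inserted flow there were 0.

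The kinases themselves are given by the brightest probe of each gene. Mapk8 and Mapk9, which encode JNK isoforms, differed from no flow at 0 h by -0.12 and -0.15 with continuous flow and by 0.013 and -0.04 with rest-inserted flow. The p38 genes Mapk11, Mapk12 and Mapk14 differed by -0.11, 0.21 and 0.38 with continuous flow and by 0.10, 0.079 and 0.083 with rest-inserted flow. Mapk8 was the kinase farthest from no flow at 1 h, at -0.49 with continuous and -0.39 with rest-inserted flow, and its second probe gave -0.11 and -0.035. Dimmer probes of Mapk12 and Mapk9 reached 0.44 and 0.68 with rest-inserted flow at 0 h, the Mapk9 probe being detected on 1 array.

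**Figure D5:**
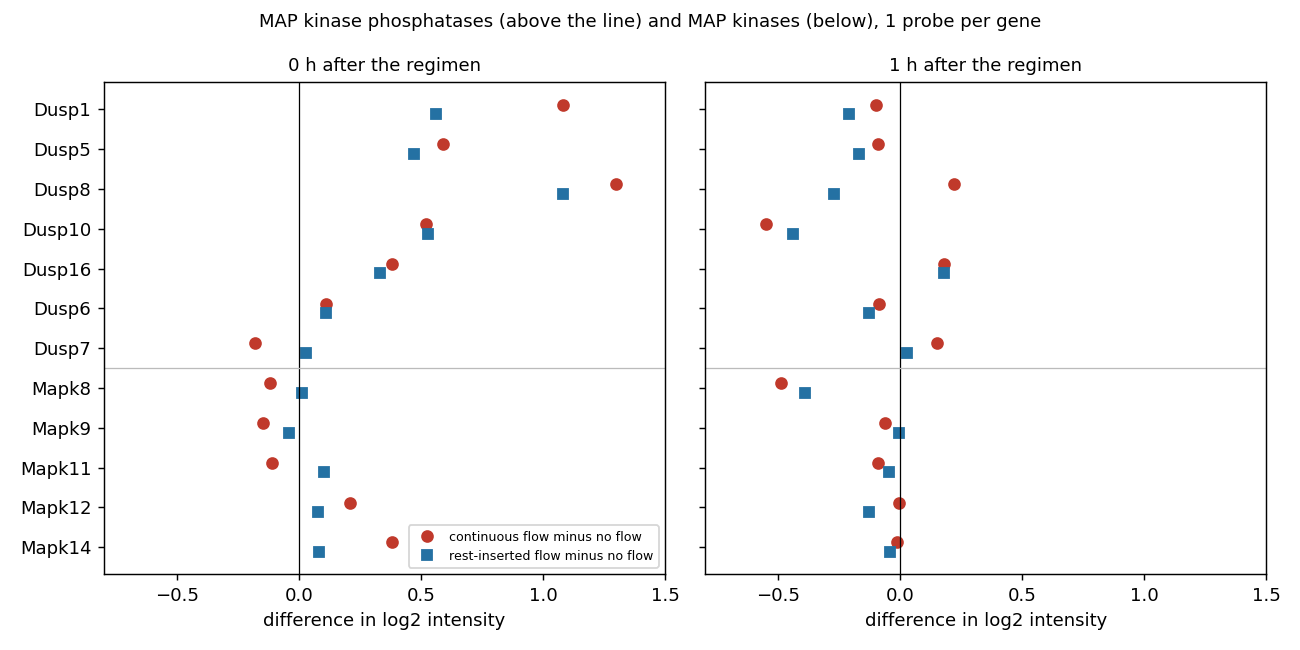
Differences in log2 intensity from no flow (horizontal axis) at 0 h and at 1 h for the measured MAP kinase phosphatases, above the grey line, and MAP kinases, below it, with the brightest probe of each gene. Circles are continuous flow and squares rest-inserted flow. Dusp8 and Dusp1 lie farthest right at 0 h with continuous flow, and the kinases lie between -0.15 and 0.38.

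Upstream components were counted by module, with 1 probe a gene and beside the same count over 8566 genes, of which 2.65% were higher by over 1.5-fold at 0 h in continuous and 2.26% in rest-inserted flow. Of 15 listed genes of the ERK module, 6 were measured and 0 were past 1.5-fold at 0 h. Among them Shc1, an adaptor, differed by 0.12 with continuous and 0.083 with rest-inserted flow, Nras by 0.13 and 0.019, and Map2k2, an ERK kinase, by 0.061 and 0.011. Of 12 genes of the JNK module, 8 were measured and 0 were past 1.5-fold. Of the JNK scaffolds, Mapk8ip3 differed by -0.10 with continuous and -0.46 with rest-inserted flow, and Mapk8ip1 by -0.27 and 0.051.

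Of 12 genes of the p38 module, 9 were measured and 1 was past 1.5-fold, in both flows. This was Map3k7, which encodes TAK1, a kinase upstream of JNK and p38, at 0.95 with continuous and 1.42 with rest-inserted flow (adjusted p = 0.549 in limma for both flows at 0 h). At 1 h it had 0.82 and 0.74, while its second probe gave -0.32 and -0.21 at 0 h. None of the measured genes of the 3 modules was called in limma, and the module medians at 0 h lay between -0.11 and 0.13, against -0.0037 and 0 over all genes.

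Genes that the kinases act on were described in the same way. Of 17 listed ERK feedback and target genes, 10 were measured and 2 were higher by over 1.5-fold with continuous flow at 0 h. These were Ier3, an early response gene, at 0.63, and Errfi1, a feedback inhibitor of the EGF receptor, at 0.59, and with rest-inserted flow they had 0.28 and 0.19, where 0 of 10 were past this limit. Fos had 0.27 with continuous and 0.32 with rest-inserted flow, and Etv4 0.27 and 0.43. With continuous flow at 0 h, Spred1 (-0.17), Etv5 (-0.062), Myc (-0.042), Egr1 (-0.037) and Etv1 (-0.017) were below no flow. With rest-inserted flow Spred1 (-0.068), Etv5 (-0.2) and Etv1 (-0.15) were below it, while Myc had 0.36 and Egr1 0.26. The median of the 10 genes at 0 h was 0.07 with continuous and 0.22 with rest-inserted flow.

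Of 14 listed transcription factors that JNK and p38 phosphorylate, or their partners, 10 were measured. With continuous flow 1 of 10 was higher by over 1.5-fold, and with rest-inserted flow 3 were higher and 1 was lower. Jun, the JNK substrate and AP-1 subunit, had at 0 h 7.89 under continuous and 7.37 under rest-inserted flow, against 6.72 without flow, and at 1 h 6.60 under continuous and 6.41 under rest-inserted flow, against 6.47 without flow. Its 0 h differences were 1.17 and 0.65. Junb had 0.56 with continuous and 0.55 with rest-inserted flow, and its adjusted p for both flows at 0 h was 0.549 in limma. With rest-inserted flow Jund (0.62, against 0.11 with continuous flow), Creb1 (0.84, against 0.57) and Mef2d (-0.80, against 0.046) were also past the limit, Creb1 being detected on 4 arrays and Mef2d on 2.

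The genes whose pattern over the 6 arrays was closest to each probe were found by the root mean square distance between log2 values centred on their own mean, among 10784 other named probes detected on every array. Closest to Dusp1 were Jun (distance 0.0747), Ankrd1 (0.102), Irak2 (0.111), Ccn1 (0.135) and Dusp8 (0.142, probe ILMN_1228031). Ankrd1 and Ccn1 are known targets of the mechanically sensitive coactivator YAP, and Irak2 takes part in interleukin and Toll-like receptor signaling. Closest to Dusp5 were Nrbf2, Plekho2, Id2, Rusc2 and Zfp36, at 0.0553 to 0.0631. Closest to Dusp8 were Jun, Egr3, Irak2, Dusp1 and Ccn1 (0.158 to 0.202) by the probe ILMN_2416218, and Irak2, Anxa6, Srf, Jun and Dusp1 (0.0869 to 0.142) by ILMN_1228031. Jun and Irak2 stood in 3 of the 4 lists, and Dusp5 shared no gene with the others. This distance depends on the size of the changes as well as their shape, and Dusp5 had the smallest 0 h differences. Its correlation was 0.979 with Dusp1 and 0.973 and 0.98 with the Dusp8 probes. The correlation between members over the 6 arrays was 0.943 to 0.98. It is a description of 6 arrays on which the same 2 were high, and it has no test.

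The arrays were also checked as a whole. Between 13472 and 14426 probes were detected on each. Of 9 osteoblast markers, 6 had a named probe past the filter, while Runx2, Bglap and Spp1 had none. On average over the arrays, Sparc stood at 13.25, Col1a1 at 12.15, Col1a2 at 10.53, Sp7 at 8 and Ibsp at 5.48. Alpl stood at 3.91 and was detected on 2 arrays. Of 5 markers each, 0 of adipocytes, 1 of muscle, 2 of macrophages and osteoclasts and 1 of endothelium were measured. The mean level of the 2 macrophage and osteoclast markers ranged over the arrays between 6.15 and 6.55. One of these, Ctsk, was detected on all 6 arrays at 9.02 on average. It differed from no flow at 0 h by -0.022 with continuous and 0.016 with rest-inserted flow. The other, Csf1r, was detected on 1 array. Its 0 h level was 3.32 under continuous and 3.35 under rest-inserted flow, against 4.10 without flow. The part of either gene in the values above was not tested.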

How the data were processed

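The deposited intensity values are probe signals that the authors background subtracted in GenomeStudio, without normalization between arrays. A detection p-value from the authors' software stands beside each deposited signal. To make the deposited log2 values, the authors applied quantile normalization and a floor of 10, and kept them for probes with a detection p under 0.01 on at least 1 array. The same steps run here gave these log2 values to within 5e-08. On the rest-inserted flow 1 h array, 25281 rows of the detection column repeat the signal, so that 1 column was not used and detection there was read from the signal (boundary between 17.8 and 17.9, with 11 probes between).

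Of 45281 probes, 15686 were kept, and 2285 without a symbol, 8 with several and 210 with a RIKEN name were left out, giving 13183. All 4 member probes matched the RefSeq table by Entrez identifier. limma 3.58.1 (R 4.3.3, constant variance prior, Benjamini-Hochberg adjustment, threshold 0.05) was fitted on all named probes, once with flow and time as terms and once with 4 cells of any flow or no flow by time point. The script was tested on simulated data. Alternatives were other scalings, floors, filters, an intensity trend in the prior and leaving out each array. The number of arrays (6) limits the precision. Named genes are the members, the other measured MAP kinase phosphatases and MAP kinases, up to 4 genes per list detected on all arrays with the largest difference of both flows at 0 h, and the 5 genes closest to each member probe. Other genes, such as Creb1, Mef2d, Dusp13, Dusp15, Csf1r, Spred1, Etv5, Myc, Egr1, Etv1, Sp7 and Alpl, were named after their values were seen. The members and all gene lists were chosen with earlier results of these data known. The comparison between time points within a condition and the count of probes whose arrays do not overlap were added after the data had been seen.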

Additional observations from a re-analysis of the deposited data

Results flagged for a closer look

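In 3 probes both flow arrays were above no flow at 0 h and both were below it at 1 h, so that the sign differed between the time points. The effect at 0 h minus the effect at 1 h was 0.98 for Dusp1, 0.66 for Dusp5 and 0.98 for the Dusp8 probe ILMN_1228031 on the log2 scale. The difference was tested in limma and did not pass the threshold after adjustment (adjusted p = 0.697, 0.63 and 0.644). The 1 h values lay between -0.21 and -0.082, within the central 95% of all named probes.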

How the results depend on the processing

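No paired analysis was possible because the labels number no replicates and each condition has 1 array. The limma fit with time as a term compares the flows within each time point. At single time points, 5 other settings gave 120 values for the 4 probes. Of these, 113 moved by less than the probe's moderated residual SD in the limma fit with both flows as repeats. This SD was 0.085 for Dusp5, 0.2 for Dusp1, and 0.2 and 0.16 for Dusp8. The count overstates stability, because the authors' log2 table and a higher floor, which lies below every member value, could not change these values. The setting that bears most on low intensities, an offset of 16, moved 6 values by more than this SD, all at 0 h. Adding an offset of 16 in place of the floor of 10 lowered the 0 h differences with continuous flow to 0.47 for Dusp5 and 1.05 and 0.81 for Dusp8, and those with rest-inserted flow to 0.37 for Dusp5 and 0.86 and 0.49 for Dusp8. Without normalization between arrays Dusp5 had 0.56 with rest-inserted flow.

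Leaving out single arrays, the averages over both time points were lowest without the no flow 0 h array and highest without the no flow 1 h array. Each of these fits keeps no flow at 1 time point only. Their estimates therefore follow the effect of flow at that time point, given above, and are not a separate check. Continuous flow against no flow ranged from -0.0016 to 0.98 for Dusp1, from -0.078 to 0.58 for Dusp5, and from 0.16 to 1.37 (ILMN_2416218) and -6e-04 to 0.98 (ILMN_1228031) for Dusp8. Rest-inserted flow against no flow ranged from -0.31 to 0.67 for Dusp1, from -0.18 to 0.48 for Dusp5, and from -0.20 to 1.02 (ILMN_2416218) and -0.19 to 0.79 (ILMN_1228031) for Dusp8. The mean of both flows ranged, in that order, from -0.16 to 0.82, -0.13 to 0.53, -0.022 to 1.19 and -0.094 to 0.89. Rest-inserted against continuous flow ranged from -0.71 to 0.086, -0.28 to 0.084, -0.76 to 0.052 and -0.59 to 0.22, turning above 0 without the continuous flow 0 h array (Dusp1, Dusp5 and ILMN_1228031) or the rest-inserted flow 1 h array (Dusp5, at 0.05, and ILMN_2416218). Both flows against no flow at 1 h ranged from -0.27 to 0.22 for ILMN_2416218, and was 0.018 without normalization. The effect at 0 h rests on a single no flow array, which could not be left out.

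With the prior following the intensity, limma called 6 probes for continuous flow against no flow and 6 for the mean of both flows, with 0 of the 4 members among them. Leaving out single arrays under that prior, an alternative added after seeing the data, gave counts up to 15 for continuous flow (2 without its 1 h array) and 8 for the mean of both. Without the no flow 1 h array, Dusp1 (0.98) and Dusp8 (1.37, ILMN_2416218) passed at an adjusted p of 0.0364 in limma for continuous flow against no flow, where the main prior called neither. Without the detection filter limma called 525 probes at 0 h, 577 at 1 h and 1012 for the difference, of which 485, 532 and 936 stood at the floor on all 4 flow arrays and so had no spread, and 0 were members. Over the 6 comparisons between flow conditions at a time point, 0.751% to 1.19% of named probes were past 2-fold in either direction.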
